A study of Mus musculus with 2 samples.

Results

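The 10 genes described here encode 3 receptors (*Notch1*, *Notch2*, *Notch3*), 4 ligands (*Dll1*, *Dll3*, *Jag1*, *Jag2*) and 3 transcriptional repressors of the Hes and Hey families (*Hes1*, *Hes5*, *Hey1*) of the Notch pathway. They were chosen by gene symbol out of 21935 symbols in the deposited tables, and each has 1 RefSeq entry there. RNA-Seq was performed on the mouse ES (embryonic stem) cell line R1 after 72 h of culture lacking LIF, a cytokine that keeps ES cells undifferentiated. The control shLuc ES cells carried a lentiviral short hairpin RNA against luciferase, and the shKdm5b ES cells a lentiviral hairpin against *Kdm5b*, which encodes a histone H3K4 demethylase. Both were kept under puromycin selection after transduction and had been maintained on irradiated mouse embryonic fibroblasts. For differentiation in medium lacking LIF the study names gelatin-coated or low attachment dishes. Each condition has 1 library, so no difference has a replicate check, and library and condition cannot be told apart.

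Notch receptors are transmembrane proteins that are cut by an ADAM protease and then by gamma-secretase when they bind a Delta-like or Jagged ligand on a neighbouring cell. The released intracellular domain joins the DNA-binding protein RBPJ and a Mastermind coactivator and switches on genes such as *Hes1*, *Hes5*, *Hey1* and *Nrarp*. The pathway is known for roles in lineage choice of differentiating ES cells, in neural progenitors and in the segmenting mesoderm.

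The 250 bases before a RefSeq start site (GRCm38.p6) were read for 3 members, *Jag1* and *Jag2* because their values went in opposite directions and *Hes5* because it holds the motif searched for. Capitals mark the core motif of RBPJ, TGGGAA on either strand, which the *Jag1* and *Jag2* windows do not hold. The windows lie at chr2:137116521-137116770 (minus strand) for *Jag1*, at chr12:112929496-112929745 (minus strand) for *Jag2* and at chr4:154960673-154960922 (plus strand) for *Hes5*, and are written 5′ to 3′.
Jag1: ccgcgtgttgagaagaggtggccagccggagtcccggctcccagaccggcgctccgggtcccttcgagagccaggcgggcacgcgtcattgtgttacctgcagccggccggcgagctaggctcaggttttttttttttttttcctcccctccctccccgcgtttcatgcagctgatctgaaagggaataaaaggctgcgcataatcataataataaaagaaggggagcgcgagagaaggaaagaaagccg
Jag2: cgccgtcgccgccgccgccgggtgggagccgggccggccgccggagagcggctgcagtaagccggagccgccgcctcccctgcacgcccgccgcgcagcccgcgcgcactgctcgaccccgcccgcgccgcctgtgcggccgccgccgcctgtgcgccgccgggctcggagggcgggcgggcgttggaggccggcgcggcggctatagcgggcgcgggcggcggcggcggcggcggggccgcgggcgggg
Hes5: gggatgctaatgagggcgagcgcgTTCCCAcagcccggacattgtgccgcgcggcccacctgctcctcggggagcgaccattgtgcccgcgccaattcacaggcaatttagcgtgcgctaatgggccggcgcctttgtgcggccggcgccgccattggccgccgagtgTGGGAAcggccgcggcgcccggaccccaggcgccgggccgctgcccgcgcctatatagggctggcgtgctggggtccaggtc

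Of all 32851 windows of this length in the RefSeq table, 21.6% held TGGGAA on either strand. RefSeq windows were matched for 8 members, 9 windows in all. *Hes1* and *Hey1* had no matched window, so neither motif was searched for in them. Of the 9 windows 1 held the RBPJ motif, that of *Hes5*, with 2 matches beginning 226 and 82 bases before the start. The N-box CACNAG, bound by Hes repressors, was searched on both strands in the same way, and no member window held both motifs. It was in 36.7% of all windows and in 3 member windows, those of *Notch1*, *Notch2* and *Notch3*. The *Jag2* window has a GC content of 87.2% and 54 CpG dinucleotides, against 57.2% and 20 for *Jag1* and 71.6% and 32 for *Hes5*. A match describes these letters and no binding was measured.

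The deposited tables give, for each transcript entry, the reads and the RPKM, that is, reads scaled to the length of the transcript in kilobases and to the aligned reads of the library. The shLuc library lists 78172698 aligned reads and the shKdm5b library 72702698, of which 67.9% and 66.3% lay on the entries used. The aligned reads are all 50 bases long and none is listed as spliced. *Kdm5b* itself had an RPKM of 104 (51378 reads) in shLuc and 3.01 (1377 reads) in shKdm5b ES cells. Ratios are shKdm5b to shLuc on the log2(RPKM + 0.1) scale, which understates changes of low genes, and each 95% interval is the exact Clopper-Pearson interval of the reads without the pseudocount and covers counting error only, PCR copies being counted as reads. Over the 11804 genes with an RPKM above 1 in at least 1 library the median log2 ratio was -0.21. TMM scaling added 0.22 to every log2 RPKM ratio without the pseudocount, and DESeq2 size factors 0.24. With the pseudocount the shift is smaller for low genes. A gene is called here when it passed 1.5-fold and has an RPKM above 1 in at least 1 library. Transcripts of higher GC content had lower log2 ratios (Spearman correlation -0.53 over 11535 genes that share the same libraries). For this reason values after a correction for GC content are also given for the members and the pathway genes named, while those of the cell type markers are uncorrected.

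ES cell markers were abundant in both libraries, with a summed RPKM of 2562 over 8 genes in shLuc and 2741 in shKdm5b ES cells. *Dppa5a* gave the largest part of both sums, at 1096 and 1651 RPKM, and was the 1 marker of the 8 called higher. The 2 called lower were *Pou5f1*, at 619 and 182 RPKM, and *Esrrb*, at 80.5 and 41.2 RPKM, and 5 were within 1.5-fold. The 8 fibroblast markers summed to 5.03 and 5.58 RPKM, of which *Thy1* alone gave 4.08 and 4.59. *Col1a1* (174 and 135 reads) and *Col3a1* (15 and 17 reads) were low in both libraries, and *Postn* and *S100a4* had 0 reads in shKdm5b ES cells. The 8 neural markers summed to 41.7 and 22.1 RPKM, most of it *Tubb3*. *Nes*, a filament gene of neural progenitors, was at 1.78 and 3.24 RPKM. The 7 mesoderm markers summed to 4.46 and 5.97 RPKM, of which *Eomes*, the only mesoderm marker above 1 RPKM, gave 2.45 and 4.05. The others were few in reads and went in both directions, with *T* at 6 and 47 reads and *Msgn1* at 18 and 0. The 6 endothelial markers summed to 18.6 and 17.6 RPKM, most of that *Pecam1*, with *Cdh5* at 15 and 12 reads. The 5 endoderm markers summed to 5.25 RPKM in shLuc and 1.20 in shKdm5b ES cells. In cultures of mixed cells, fewer cells of a type and less RNA per cell cannot be told apart, and the part of these cell types in the ratios below was not tested.

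Among the Notch members, *Dll1*, *Jag1*, *Hes1* and *Hey1* were higher in shKdm5b than in shLuc ES cells by 1.55-fold to 1.90-fold, and *Jag2* was 2.06-fold lower. The receptors *Notch1*, *Notch2* and *Notch3* and the ligand *Dll3* stayed within 1.5-fold. *Hes5* was below 1 RPKM in both libraries and was not called. Of the 9 members above the RPKM threshold, 5 were thus called, a share near the 48.3% called among all 11804 genes. Of these 5, 4 were higher and 1 lower, beside 16.3% of all genes higher and 32.0% lower. With TMM scaling the same 5 members were called, while 2812 of all genes were higher and 2752 lower in place of 1921 and 3781. The median log2 ratio was -0.10 over all 10 members and -0.04 over the 9 without *Hes5*, beside -0.21 for the 11804 genes above the same RPKM threshold.

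**Figure D1:**
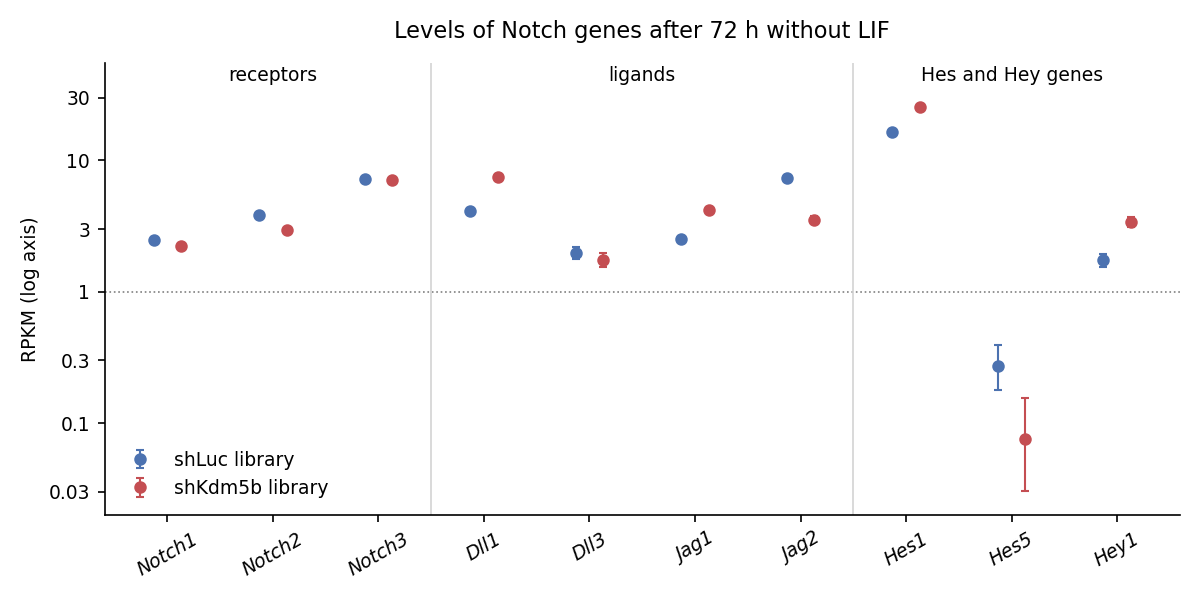
RPKM of each member on a log axis in the shLuc (blue) and shKdm5b (red) libraries, with exact 95% Poisson intervals of the reads as bars, which are smaller than most points, and a dotted line at 1 RPKM. *Dll1*, *Jag1*, *Hes1* and *Hey1* sit higher in red, *Jag2* sits lower, and *Hes5* lies below 1 RPKM in both libraries.

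*Notch3* was the most abundant receptor, with an RPKM of 7.22 (4482 reads) in shLuc and 7.04 (4066 reads) in shKdm5b ES cells. Its log2 ratio was -0.04 (95% interval -0.10 to 0.03), so that no difference was detectable at this depth on the deposited scale, and it was 0.18 after TMM scaling. *Notch3*, on chromosome 17 from 32120820 to 32166852 (GRCm38, minus strand), spans 33 exons. *Notch2*, on chromosome 3 from 98013527 to 98150361 with 34 exons, had 3.86 RPKM (3167 reads) in shLuc and 2.96 RPKM (2260 reads) in shKdm5b ES cells. Its log2 ratio of -0.37 (-0.46 to -0.30) was the lowest of the receptors and exceeded counting error, and it was -0.16 after TMM scaling. *Notch1*, on chromosome 2 from 26457903 to 26516663 and also with 34 exons, had 2.49 RPKM (1847 reads) and 2.22 RPKM (1531 reads). Its log2 ratio of -0.16 (-0.26 to -0.07) was close to the median of all genes and became 0.05 after TMM scaling and 0.07 with DESeq2 size factors. Summed over the 3 receptors, the RPKM was 13.6 in shLuc and 12.2 in shKdm5b ES cells. *Notch3* made up 53.2% of that sum in shLuc and 57.6% in shKdm5b ES cells, and *Notch2* 28.4% and 24.2%. Within each library, which cancels the scaling, the ratio of *Notch3* to *Notch2* was 1.87 in shLuc and 2.38 in shKdm5b ES cells, a 1.27-fold difference (95% exact conditional interval 1.19 to 1.36) that was 1.63-fold after the GC correction. *Notch4*, the remaining receptor, had 1.07 RPKM (553 reads) and 1.25 RPKM (601 reads), a log2 ratio of 0.21 (0.06 to 0.39). *Notch4* was at 1.06 after the GC correction, and at 1.28 with length corrected too, past 1.5-fold in both.

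Of the 4 ligands, *Dll1* and *Jag1* were higher in shKdm5b ES cells, *Jag2* was lower and *Dll3* was within 1.5-fold. *Dll1*, a Delta-like ligand needed for somite patterning, had an RPKM of 4.12 (1104 reads) in shLuc and 7.50 (1870 reads) in shKdm5b ES cells. It was 1.80-fold higher in the shKdm5b library, with a log2 ratio of 0.85 (0.76 to 0.97). *Jag1*, the Jagged ligand mutated in Alagille syndrome, had 2.52 RPKM (1045 reads) and 4.19 RPKM (1613 reads). It was 1.63-fold higher, with a log2 ratio of 0.71 (0.62 to 0.84), which was 0.56 and under the threshold with a pseudocount of 1. *Jag2*, its paralog, showed the opposite, with 7.41 RPKM (2349 reads) in shLuc and 3.55 RPKM (1046 reads) in shKdm5b ES cells and a log2 ratio of -1.04 (-1.17 to -0.96). This call was lost after the GC correction, at -0.14, and the ligand levels and shares given here are uncorrected. On the deposited scale *Jag2* was thus the most abundant of the 4 ligands in shLuc and the third in shKdm5b ES cells, where *Dll1* was the highest. *Dll3*, which acts within the cell and does not activate Notch on neighbours, had 1.97 RPKM (333 reads) and 1.74 RPKM (274 reads), a log2 ratio of -0.17 whose counting interval (-0.41 to 0.06) includes 0.

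The sum of the 4 ligands was nearly the same, at 16.0 RPKM in shLuc and 17.0 in shKdm5b ES cells, while its make-up differed. *Jag2* gave 46.3% of the sum in shLuc and 20.9% in shKdm5b ES cells. *Dll1* gave 25.7% and 44.2%, and *Jag1* 15.7% and 24.7%. Per length, *Jag1* stood at 0.340 of *Jag2* in shLuc and at 1.18 times *Jag2* in shKdm5b ES cells. This ratio, which does not depend on the library totals, differed 3.47-fold (95% exact conditional interval 3.11 to 3.86). The ratio of *Dll1* to *Jag2* was likewise 0.556 and 2.11, a 3.80-fold difference (3.42 to 4.23). After the GC correction these differences were 1.97-fold and 2.98-fold. The ratio of *Dll1* to *Jag1* was 1.63 and 1.79, a 1.10-fold difference whose interval (0.984 to 1.22) includes 1, and 1.51-fold after the GC correction. *Dll1* lies on chromosome 17 from 15367354 to 15376872 with 11 exons, and *Dll3* on chromosome 7 from 28293553 to 28302238 with 9 exons. *Jag1* on chromosome 2 from 137081456 to 137116644 and *Jag2* on chromosome 12 from 112907819 to 112929776 have 26 exons each, and all 4 ligand genes are on the minus strand.

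**Figure D2:**
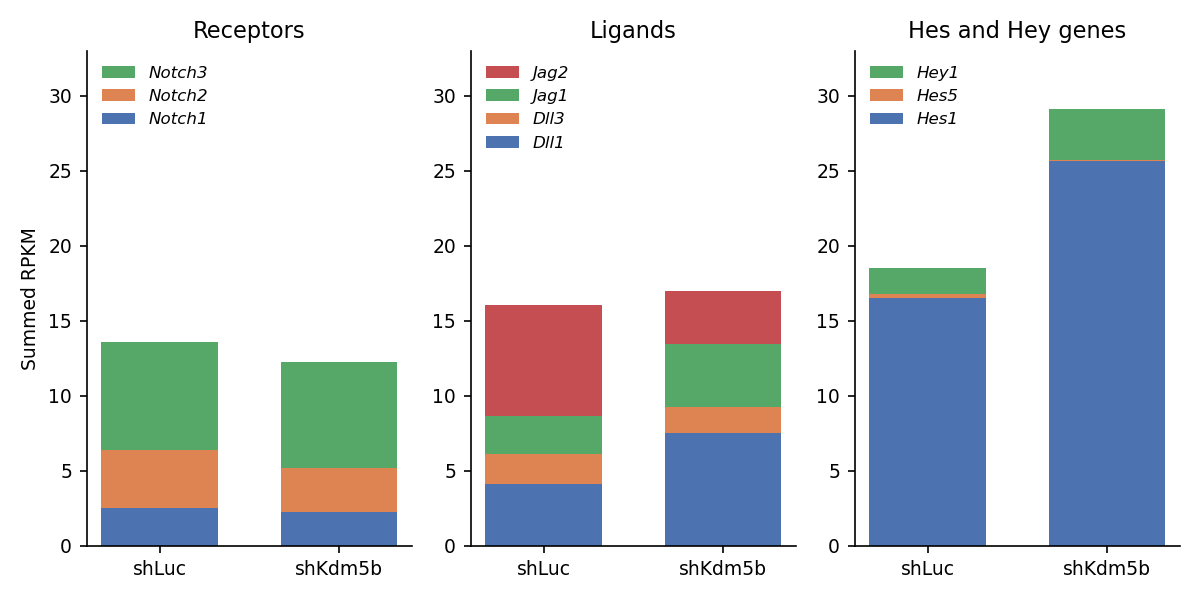
Summed RPKM (linear axis from 0) of the receptors, the ligands and the Hes and Hey genes in the shLuc and shKdm5b libraries, 1 library each, with 1 colour per gene. The ligand bars have nearly equal heights (16.0 and 17.0) but *Jag2* takes 46.3% of the first and 20.9% of the second, from deposited RPKM with no GC correction.

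*Hes1*, a repressor whose level oscillates in ES cells and neural progenitors, was the most abundant member, with an RPKM of 16.5 (1870 reads) in shLuc and 25.7 (2707 reads) in shKdm5b ES cells. Its log2 ratio of 0.64 (0.55 to 0.72) was 1.55-fold, just past the threshold. *Hey1*, a related repressor, had 1.75 RPKM (301 reads) and 3.41 RPKM (547 reads), a 1.90-fold difference and a log2 ratio of 0.93 (0.76 to 1.17), the highest of the members. The Notch target *Nrarp*, which limits Notch signalling, had 1.29 RPKM (260 reads) and 2.03 RPKM (380 reads), a log2 ratio of 0.61 (0.42 to 0.89), and 1.14 after the GC correction. *Hes5*, a target in neural progenitors, was near the detection limit, with 27 reads (0.271 RPKM) in shLuc and 7 reads (0.0756 RPKM) in shKdm5b ES cells. Without a pseudocount its log2 ratio was -1.84 (-3.29 to -0.61), so the reads of both libraries differed beyond counting error although they are few. With the pseudocount of 0.1 the *Hes5* ratio was -1.08, and it was -0.60 after the GC correction and -0.78 with length corrected too. *Hes1* lies on chromosome 16 from 30064384 to 30067796 (plus strand, 4 exons), *Hes5* on chromosome 4 from 154960923 to 154962371 (plus strand, 3 exons) and *Hey1* on chromosome 3 from 8663359 to 8667256 (minus strand, 5 exons). *Hes6*, a Hes protein that opposes *Hes1*, had 12.1 RPKM (1267 reads) and 5.67 RPKM (550 reads), a log2 ratio of -1.09 (-1.25 to -0.95). After a correction for GC content *Hes6* was at -0.23 and no longer called. The ratio of *Hes1* to *Hes6* was thus 1.36 in shLuc and 4.53 in shKdm5b ES cells, a 3.33-fold difference (2.96 to 3.75) that was 2.18-fold after the GC correction.

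The order of the members by RPKM in shLuc ES cells was *Hes1*, *Jag2*, *Notch3*, *Dll1*, *Notch2*, *Jag1*, *Notch1*, *Dll3*, *Hey1* and *Hes5*. The exact Poisson intervals of the neighbours *Jag2* and *Notch3*, *Dll1* and *Notch2*, *Jag1* and *Notch1*, and *Dll3* and *Hey1* overlapped, so these pairs cannot be ordered. In shKdm5b ES cells the order was *Hes1*, *Dll1*, *Notch3*, *Jag1*, *Jag2*, *Hey1*, *Notch2*, *Notch1*, *Dll3* and *Hes5*, where *Dll1* and *Notch3*, and *Jag2* and *Hey1*, overlapped. Since no spliced reads are listed, reads that cross an exon junction are missing from the levels per length. The share of 50-base windows that cross an exon junction ran from 8.01% for *Hes5* and 8.26% for *Hey1* to 21.6% for *Jag1* and 23.8% for *Jag2*. This bears on the order of the genes by level. The libraries were made from double-stranded cDNA without a stated strand mark. The spans of *Notch3*, *Dll1*, *Hes5* and *Notch1* overlap those of GENCODE genes on the opposite strand (*Gm17276*, *A930024N18Rik*, *Gm20421*, and *0610009E02Rik* with *Gm13568*). Reads from any exon sequence that they share cannot be told apart, and whether their exons overlap was not examined.

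The GC content of the members ran from 48.8% for *Jag1* to 62.1% for *Hes5*, beside a median of 50.5% over the genes compared, and 9 of the 10 lay above that median. The 4 higher members had a GC content of 48.8% to 54.9%, and *Jag2* had 61.9%. After the GC correction, *Dll1* (log2 ratio 1.41), *Jag1* (0.82), *Hes1* (0.89) and *Hey1* (1.33) were still more than 1.5-fold higher. *Jag2* was not, with a log2 ratio of -0.14, and after a correction for both GC content and transcript length it was 0.0088. *Notch3* (0.80) and *Dll3* (0.69) passed 1.5-fold in the higher direction, while *Notch1* (0.53) and *Notch2* (0.10) did not. After the correction 6 members were therefore called, all higher, where 36.7% of genes were called. The share was 18.6% higher and 18.1% lower over the 11535 genes with a GC value. With GC content and length corrected, 7 were higher, *Notch1* (0.83) included, beside 15.1% of genes higher and 16.7% lower. In GC content *Jag1* minus *Jag2* is -13.1 percentage points. Whether the relation to GC content arose in the cells or in the libraries was not tested.

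**Figure D3:**
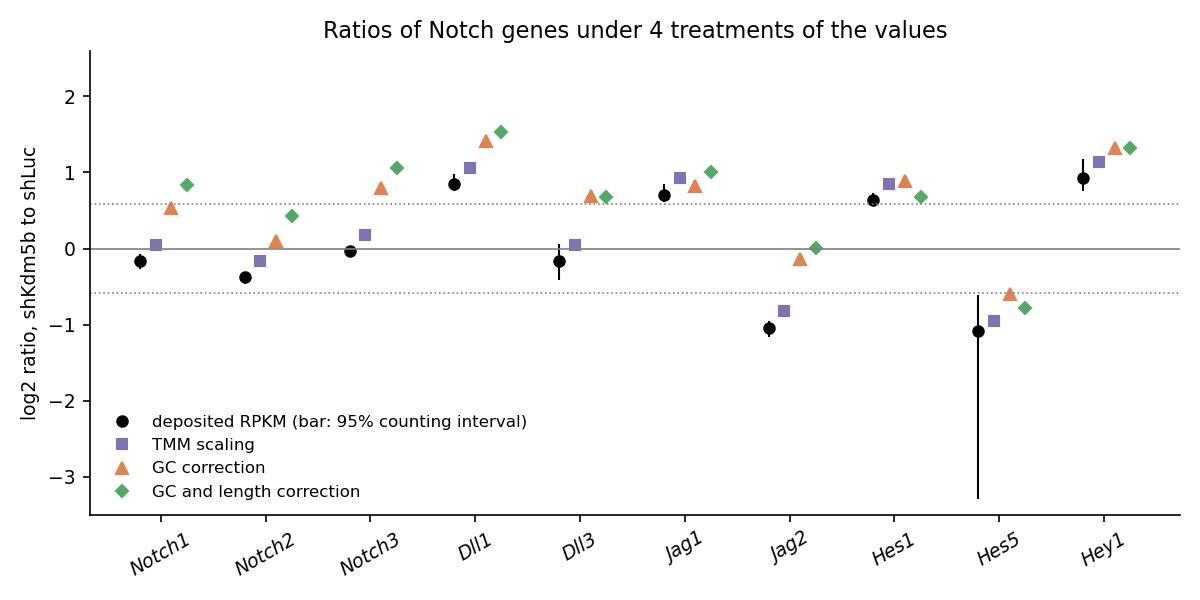
Log2 ratio of shKdm5b to shLuc for each member from the deposited RPKM (black, bars are 95% counting intervals taken without the pseudocount), after TMM scaling (squares), after GC correction (triangles) and after GC and length correction (diamonds), with dotted lines at 1.5-fold. *Dll1*, *Jag1*, *Hes1* and *Hey1* lie above the upper line under all 4, while *Jag2* moves from -1.04 to 0.0088.

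**Figure D4:**
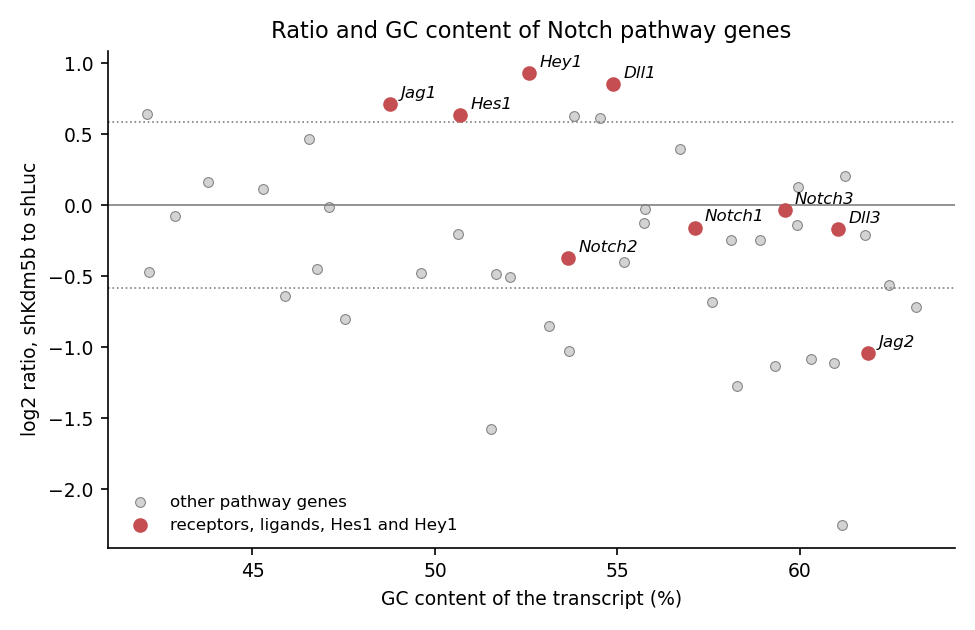
GC content of the transcript against the log2 ratio of shKdm5b to shLuc from the deposited RPKM, for the 9 members (red) and the 37 other pathway genes (grey) with RPKM above 1 in at least 1 library, with dotted lines at 1.5-fold. *Jag2* and *Dll3* have GC contents of 61.9% and 61.0% and log2 ratios of -1.04 and -0.17, which became -0.14 and 0.69 after the GC correction (not drawn).

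A list of 52 other genes of the Notch pathway was examined by role, and 37 of them had an RPKM above 1 in at least 1 library. Of these 37, 3 were more than 1.5-fold higher (*Adam10*, *Psenen*, *Nrarp*) and 12 lower, with a median log2 ratio of -0.40. The lower calls are a share near the 32.0% of all genes lower, and the 15 calls in all are a smaller share than the 48.3% of all genes called. After the GC correction 8 were higher and 5 lower, beside 18.6% and 18.1% of all genes, with a median of -0.03, and with TMM scaling 5 were higher and 8 lower.

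*Rbpj*, the DNA-binding partner, had 42.8 RPKM in shLuc and 40.5 in shKdm5b ES cells (log2 ratio -0.08, and -0.40 after the GC correction), *Snw1* had 46.8 and 46.5 RPKM (-0.01, and -0.03) and the coactivator *Maml1* had 7.80 and 7.14 RPKM (-0.13, and 0.49, or 0.68 with length corrected too). Of the 10 nuclear genes above the RPKM threshold, 2 were lower, the corepressors *Spen* (log2 ratio -0.68) and *Tle4* (-0.80, from 85.5 to 48.9 RPKM), and 0 were higher. Among all genes 32.0% were lower and 16.3% higher. With TMM scaling neither was called, while *Kat2b* and *Tle3* were higher. *Spen* was at 0.05 after the GC correction and *Tle4* at -0.78. Of the 10, 4 were then higher and 1 lower, beside 18.6% and 18.1% of all genes.

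Of the 8 shedding and gamma-secretase genes above the threshold, 2 were higher and 1 lower, beside 16.3% and 32.0% of all genes. *Adam10*, the protease that cuts ligand-bound Notch, had 7.36 RPKM (2640 reads) in shLuc and 11.5 RPKM (3845 reads) in shKdm5b ES cells, a log2 ratio of 0.64 that became 0.28 after the GC correction. *Psenen*, a small subunit of gamma-secretase, had 15.1 and 23.5 RPKM (0.63, and 1.13 after the GC correction but 0.35 and not called with length corrected too). *Aph1a*, another subunit, had 11.6 and 5.66 RPKM (-1.02, and -0.54 after the GC correction).

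The genes of ligand ubiquitination and receptor turnover were the group with the most lower calls, 7 of the 12 above the threshold, with 0 higher and a median log2 ratio of -0.68. Of all genes 32.0% were lower. With TMM scaling 5 of the 12 were lower, *Numbl* and *Dtx3l* no longer. *Mib2*, a ubiquitin ligase that promotes ligand endocytosis, had 6.26 RPKM (1899 reads) in shLuc and 1.23 RPKM (348 reads) in shKdm5b ES cells, a 4.77-fold difference and a log2 ratio of -2.25 (-2.51 to -2.18). After the GC correction *Mib2* was at -1.40. The related *Mib1* had 5.82 and 4.16 RPKM (-0.48, and -0.30 after the GC correction). *Numb*, which antagonises Notch, had 8.22 and 4.50 RPKM (-0.85, and -0.42 after the GC correction), and its paralog *Numbl* 6.72 and 4.05 RPKM (-0.72, and 0.23). The other lower genes were *Neurl1a* (-1.11, and -0.27 after the GC correction), *Dtx2* (-1.14, and -0.32), *Dtx3* (-1.27, and -0.50) and *Dtx3l* (-0.64, and -0.75). After the GC correction 3 of the 12 were lower, *Mib2*, *Dtx3l* and *Itch*, beside 18.1% of all genes.

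Among the 4 glycosylation genes above the threshold, *Pofut1*, which adds the O-fucose that Notch needs to bind its ligands, was lower, with 3.65 RPKM (1598 reads) in shLuc and 1.16 RPKM (472 reads) in shKdm5b ES cells. Its log2 ratio was -1.57 (-1.81 to -1.51), and -1.27 after the GC correction. *Poglut1*, which adds O-glucose, had 26.0 and 19.1 RPKM (-0.45, and -0.49 after the GC correction), and the Fringe genes *Mfng* (-0.24) and *Rfng* (-0.14) stayed within 1.5-fold. With GC content corrected, *Mfng* was at 0.50 and *Rfng* at 0.71, which is past 1.5-fold in the higher direction.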

How the data were processed

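RNA-Seq of polyA RNA was analysed from 1 shLuc and 1 shKdm5b library. The authors deposited, per RefSeq entry, the read count, the transcript length and the RPKM, and the aligned reads of each library. The submitters' processing notes name CASAVA 1.0, Bowtie 0.12.7 and build mm8, without their order. The number of listed reads equals, within rounding, the total that the RPKM values imply. The counting program is not given in the sources used here. Reads along each gene could not be examined, since no mm8 annotation was used here, and coordinates come from GENCODE M21 (GRCm38). They describe the genes, not the alignment.

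Where a symbol had several entries, that of highest mean RPKM was used. The members and lists were chosen with earlier results of these data known. All 10 members, *Kdm5b* and the pathway genes past the thresholds are named by rule. The rule also covered abundant pathway genes (RPKM of at least 10) and listed markers, of which not all are named. No values are given for *Ncstn*, *Adam17*, *Fbxw7* and *Aes*, which are abundant and within 1.5-fold on the deposited scale. *Notch4*, *Maml1*, *Mib1*, *Mfng* and *Rfng* were added after their values were seen. Some listed genes are not reported here by name. Calls used a fold change above 1.5 and an RPKM above 1, after the thresholds of the study. edgeR 4.0.16 and DESeq2 1.42.0 (R 4.3.3) gave scaling factors, and edgeR an exact test at assumed dispersions. A quasi-likelihood test needs replicates. GC content came from the GENCODE transcript of the same accession (97.7% of the genes compared), and the trend of log2 ratios on GC content, or on GC content and then length, was removed with lowess (statsmodels 0.14.6, fraction 0.3). The calls, the intervals, the GC correction and the exact test at a dispersion of 0 were tested on simulated data, the length correction was not. The simulated reads had Poisson error only and a straight-line GC effect, so variation between libraries was not covered. Alternatives were pseudocounts of 1 and 0.01, both scalings, summed entries, the corrections, RPKM thresholds (none, above 1 in both libraries, above 11), a fold change above 2 and the exact test at dispersions of 0.04 and 0. Other work used Python 3.11.15 and SciPy 1.17.1.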

Additional observations from a re-analysis of the deposited data

How the results depend on the processing

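No paired analysis was possible because shLuc and shKdm5b have 1 library each, which also left no replicate to leave out. Counting reads again from the alignments was not run.

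The 5 called members became 1 (*Hes1*) with an RPKM above 11, a level that no other member reached in either library. They became 1 (*Jag2*) with a fold change above 2, and 0 when an exact test at an assumed dispersion of 0.04 and FDR below 0.001 was added. *Kdm5b* passed this test, which has no replicates behind it. The calls of all genes, 5702, became 2678, 2688 and 272 under the same settings and 3671 after the GC and length correction. Those of the 15 other pathway genes became 6, 7 and 1 (*Mib2*).

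The median log2 ratio of the members, -0.10, became 0.12 with TMM scaling, 0.13 with DESeq2 size factors, 0.74 when GC content was corrected and 0.76 when length was corrected too. Before the pseudocount is added, either scaling raises the ratios of all genes alike. *Jag2* changed sign, to 0.0088, after the GC and length correction, and the cause was not tested. *Kdm5b*, at -5.07, was at -4.72 with a pseudocount of 1, -4.85 with TMM scaling and -4.84 with DESeq2 size factors or the GC and length correction. Of 70 member values under the alternatives, 36 stayed within counting error.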

Other observations

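Among the 15 pathway genes below 1 RPKM in both libraries, 8 had reads whose 95% counting interval excludes a log2 ratio of 0 on the deposited scale. They were picked after their values were seen. The share of all genes below 1 RPKM with such an interval was not computed, so the count is not a result about the pathway. *Maml3*, a Mastermind coactivator, had 107 reads in shLuc and 223 in shKdm5b ES cells (interval 0.83 to 1.51). *Aph1b*, a paralog of *Aph1a* in gamma-secretase, had 71 and 151 reads (0.78 to 1.62), the opposite direction to *Aph1a*. *Hey2*, the closest relative of *Hey1*, had 86 and 142 reads (0.43 to 1.23), the same direction as *Hey1*. *Hes2* had 42 and 6 reads (-4.23 to -1.46). *Dlk2*, a Delta-like protein of the non-canonical type, had 20 and 0 reads, with an upper interval limit of -2.20 and no lower limit. Its shLuc RPKM was 6.20 times that of a floor of 3 reads in the shKdm5b library, a value that leaves out the counting error of the 20 reads. *Lfng*, the Fringe gene of the segmentation clock, had 131 and 79 reads (-1.05 to -0.21), *Dlk1* 263 and 181 (-0.72 to -0.16) and *Maml2* 221 and 154 (-0.72 to -0.11). The upper limits of *Lfng*, *Dlk1* and *Maml2* lie closer to 0 than the 0.22 that TMM scaling adds, so their intervals exclude 0 on the deposited scale only.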
